A study of Arabidopsis thaliana with 6 samples.

Results

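WRKY53, WRKY6, CML41 and AT1G57630 are 4 Arabidopsis thaliana genes linked to senescence, defence or calcium signalling, and each was read by 1 probe set. The probe sets were 254231_at for WRKY53 (AT4G23810), 264746_at for WRKY6 (AT1G62300), 252136_at for CML41 (AT3G50770) and 246405_at for AT1G57630. They were found as the probe sets annotated to exactly 1 of these genes, 4 of the 13356 genes that the array annotation names singly. The genes were chosen by their measured differences between the genotypes, so those differences are described here and no test of them is given as a result. Whole seedlings were sampled at 9 days of age from wild type (Col-0) and from the myb3r1 myb3r4 double mutant in the same cultivar, with 3 arrays per genotype. Both genotypes grew without treatment under continuous light at 22 °C, on MS agar that held 2% sucrose, and neither the mutant alleles nor the number of seedlings per sample is given in the sources used here. Each of the 3 experimental sets held 1 array of each genotype. No label tells whether a set was a culture of its own, so p-values cover only the spread of these arrays, and that spread may be technical.

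WRKY proteins are plant transcription factors that bind W-box motifs, and many of them act in defence and in the ageing of leaves. WRKY53 is known as an early positive regulator of leaf senescence, and WRKY6 is known from senescence, defence and the control of phosphate transport. CML41 is a calmodulin-like calcium sensor of plasmodesmata, the channels between plant cells, where it takes part in their closure by callose during responses to bacterial flagellin. AT1G57630 is annotated with a TIR domain, a module of many plant immune receptors. MYB3R1 and MYB3R4 encode MYB transcription factors of the cell division cycle, and the annotation used here names no probe set for either, so their transcripts were not analysed here.

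Levels are given in log2 units above or below the median signal of their own array. A difference is the level in the double mutant less that in wild type (log2), from a limma fit with the experimental set as a block, with its SE. Levels of different probe sets are not compared with each other. The 13648 brightest probe sets by mean over all 6 arrays were tested, and all 4 genes were among them, with mean levels above those of 18.0% to 31.9% of the tested probe sets. AT1G57630 passed this filter only through its mutant arrays. Its wild-type mean, -0.91, and its wild-type levels in sets 2 and 3, -1.95 and -1.02, lay below the mean level needed to pass. Its difference and its rank among all differences therefore rest on dim wild-type values. Over all tested probe sets the median difference was 0.058. The arrays differed in a sign of RNA quality. Control genes are read at both ends, and their log2 signal at the 3' end exceeded that at the 5' end by means of 1.07, 3.04 and 3.22 on the wild-type arrays (sets 1, 2 and 3) and by 1.50, 1.92 and 2.44 on those of the mutant. Transcripts listed as shoot and as root markers were both present, as the label of whole seedlings implies. Whether the listed genes are confined to those organs was not tested. RCA (Rubisco activase) had a wild-type level of 6.46 ± 0.12 and the root beta-glucosidase gene PYK10 one of 5.88 ± 0.37 (SD, n = 3 each). Of 4 tested shoot photosynthesis markers all had differences above 0, from 0.20 (SE 0.12) for PSAE-1 of photosystem I through 0.33 (SE 0.13) for PRK and 0.36 (SE 0.12) for RCA to 0.40 (SE 0.13) for SBPASE, both PRK and SBPASE being enzyme genes of the Calvin cycle, as had both tested root markers, PYK10 (0.33, SE 0.15) and NAI2 (0.41, SE 0.16), while the root hair gene EXPA7 was too dim to be tested. Of all tested probe sets 58.3% had a difference above 0. None of these markers passed an adjusted p of 0.05 in limma. An unadjusted p under 0.05 was found for 3 of the 4 shoot and 1 of the 2 root markers, all higher. Of all tested probe sets 12.6% were higher with such a p. The part of the markers in the values below was not tested. In whole seedlings, fewer cells of a type and less RNA per cell cannot be told apart.

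All 4 genes were higher in the mutant in each of the 3 sets. The difference was 1.93 (SE 0.27) for AT1G57630, 1.18 (SE 0.17) for CML41, 0.94 (SE 0.16) for WRKY53 and 0.68 (SE 0.16) for WRKY6, which are 3.80-fold, 2.26-fold, 1.91-fold and 1.60-fold. In AT1G57630, CML41 and WRKY53 the lowest mutant array lay above the highest wild-type array, and in WRKY6 the genotypes overlapped. Being higher in all 3 sets was seen in 26.3% of the tested probe sets, and mutant arrays that all lay above the wild-type arrays in 8.15%. The limma calls of this contrast entered the choice of the genes and are no evidence about them: 3 of the 4, all but WRKY6, were among the 53 probe sets called higher (adjusted p under 0.05, 0.388% of those tested). In either direction 72 probe sets were called, 0.528% of those tested, a number that was 1107 without set 1, 207 without set 3 and 1 without the set as a block. Only 2 tested probe sets had a larger positive difference than AT1G57630, while 64 exceeded CML41, 140 exceeded WRKY53 and 438 exceeded WRKY6.

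**Figure D1:**
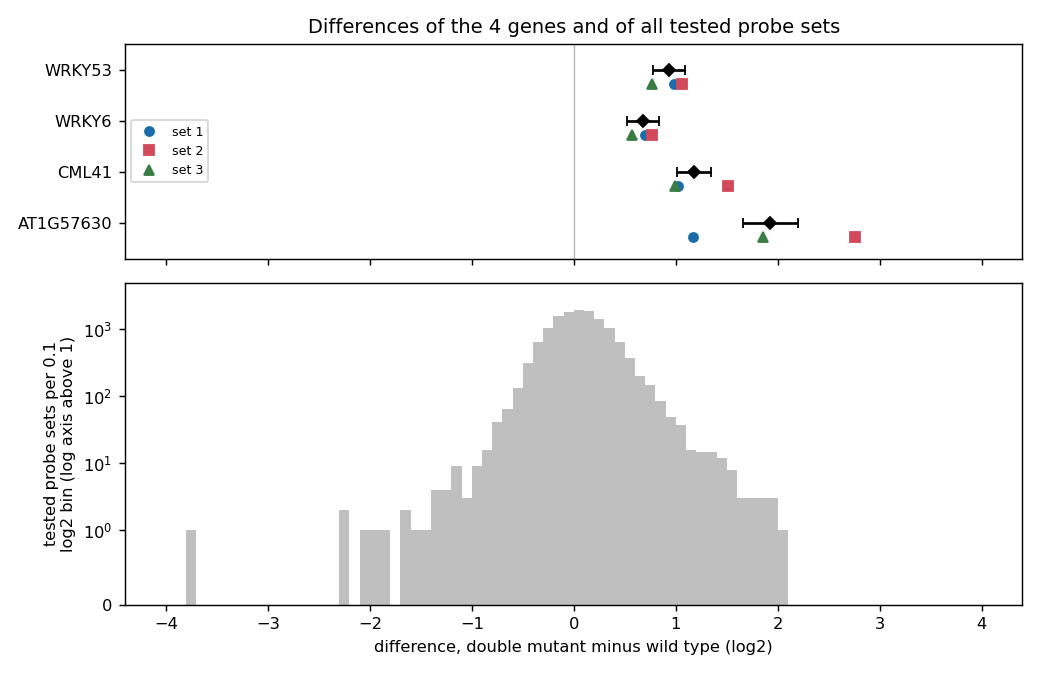
The upper panel shows the fitted difference (double mutant minus wild type, log2) of each gene as a diamond with its SE, and below it the differences within sets 1 to 3. The lower panel shows how many of the 13648 tested probe sets fall in each bin of the same axis, around a median of 0.058. All 12 within-set differences lie above 0, and those of AT1G57630 are the most spread.

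WRKY53 had levels of -0.32, -0.25 and -0.04 on the wild-type arrays (sets 1, 2 and 3). In the mutant arrays of the same sets it had levels of 0.67, 0.81 and 0.72. The arrays of each genotype lay close together. Wild type averaged -0.20 ± 0.14 and the mutant 0.73 ± 0.07 (SD, n = 3 each), and a gap of 0.71 parted the lowest mutant array from the highest wild-type array. The within-set differences of this senescence regulator were 0.98, 1.06 and 0.76. Its range over the mutant arrays, 0.15, was larger than that of only 9.47% of the tested probe sets. Because its level hardly moved between sets, the SE was similar without the set as a block, at 0.17.

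WRKY6 had levels of 0.69, -0.62 and -0.57 on the wild-type arrays (sets 1, 2 and 3), and of 1.39, 0.14 and 0.00 in the mutant arrays. In each genotype the array of set 1 stood well above the other 2, and the wild-type array of set 1 was higher than the mutant arrays of sets 2 and 3. Wild type averaged -0.17 ± 0.74 and the mutant 0.51 ± 0.76 (SD, n = 3 each). Within sets the differences of this second WRKY gene were nonetheless close, at 0.70, 0.76 and 0.57. Their range of 0.19 was larger than that of 11.5% of the tested probe sets, whereas the range of its level over the wild-type arrays, 1.31, was larger than that of 93.4%. Without the block the difference was the same and its SE was 0.46 in place of 0.16.

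CML41 had levels of 0.44, -0.28 and -0.13 on the wild-type arrays (sets 1, 2 and 3). In the mutant arrays it had levels of 1.47, 1.23 and 0.86. The genotypes did not overlap, with means of 0.01 ± 0.38 and 1.19 ± 0.30 (SD, n = 3 each) and a gap of 0.42. The within-set differences of this calcium sensor gene were 1.03, 1.51 and 0.995, the largest being that of set 2. Their range, 0.52, was near the median range of the tested probe sets, 0.48.

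AT1G57630 had levels of 0.24, -1.95 and -1.02 on the wild-type arrays (sets 1, 2 and 3), and of 1.42, 0.80 and 0.84 in the mutant arrays. The wild-type arrays were far apart while those of the mutant were closer together, and the genotypes did not overlap, with a gap of 0.56. Wild type averaged -0.91 ± 1.102 and the mutant 1.02 ± 0.34 (SD, n = 3 each). The wild-type range of this TIR gene, 2.20, was larger than that of 99.1% of the tested probe sets, and its mutant range, 0.61, larger than that of 71.7%. Its within-set differences were accordingly uneven, at 1.17, 2.76 and 1.85. The excess of the 3' control signal differed between mutant and wild type by 0.44, -1.12 and -0.78 in the same sets. With this excess as a covariate the AT1G57630 difference was 1.49 (SE 0.21) in place of 1.93, against 1.07 for CML41, 0.94 for WRKY53 and 0.68 for WRKY6. The covariate leaves fewer residual degrees of freedom than the 2 of the main fit. The part of the 3' excess in the AT1G57630 values was not tested.

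**Figure D2:**
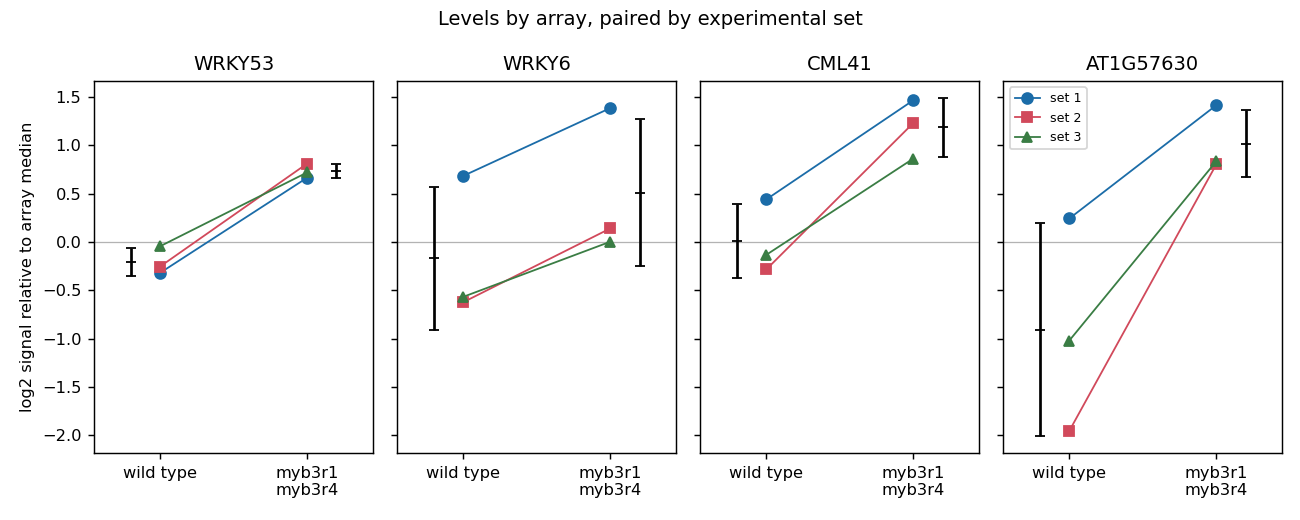
Each panel shows 1 gene, with its log2 signal relative to the array median in each of the 6 arrays. Lines join the wild-type and mutant arrays of a set, and bars at the side give the mean and SD of 3 arrays. Every line rises toward the mutant. The WRKY6 lines run nearly parallel with set 1 above the others, and the AT1G57630 lines start far apart and end close together.

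The order of the sets, which does not use the contrast that chose the genes, was not the same in WRKY53 as in the rest, though in WRKY53 it rests on small gaps. In WRKY6, CML41 and AT1G57630 set 1 was the highest of the 3 sets in both genotypes, a pattern seen in 27.6% of the tested probe sets. In WRKY53 set 1 was the lowest in both genotypes, as in 24.9% of the tested probe sets. The next lowest array lay close to it, at -0.25 against -0.32 in wild type and 0.72 against 0.67 in the mutant. The level in set 1 minus the mean of sets 2 and 3 was 1.28 in wild type and 1.31 in the mutant for WRKY6. For CML41 it was 0.65 and 0.42, and for AT1G57630 it was 1.73 and 0.60. For WRKY53 it was -0.17 and -0.10, against medians of 0.017 and 0.018 over all tested probe sets. Set 1 was also the set with the smallest excess of 3' control signal in both genotypes, and the part of this in the order of the sets was not tested.

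**Figure D3:**
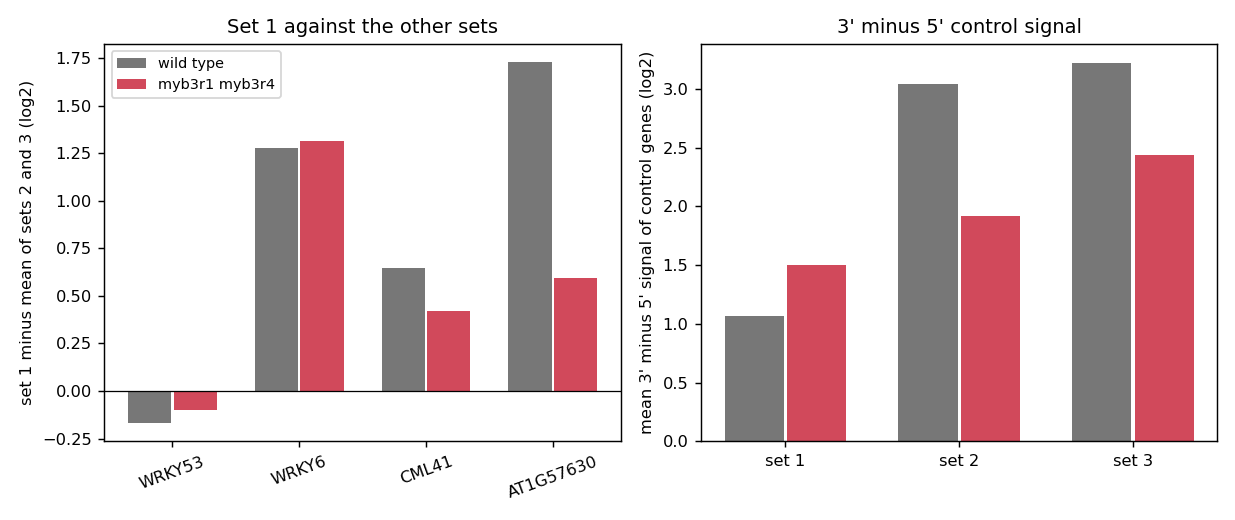
The left panel shows, for each gene and genotype, the level in set 1 minus the mean of sets 2 and 3 (log2). The right panel shows by how much the 3' signal of control genes exceeded the 5' signal on average (log2) on each of the 6 arrays. The bars of WRKY6 are at 1.28 in wild type and 1.31 in the mutant, those of WRKY53 lie below 0, and set 1 has the lowest control values, at 1.07 and 1.50.

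The genes closest to each of the 4 over the 6 arrays were found by the root mean square difference of log2 values, each gene being centred on its own mean, among 7306 other tested probe sets that carry 1 gene. This measure includes the genotype difference and is a description. Closest to WRKY53 were AT1G72920 (0.12), AT3G12685 (0.13) and AT1G48200 (0.13). Closest to WRKY6 were AT5G01210 (0.10), AT3G11930 (0.11) and AT3G26510 (0.12), which all shared the high level in set 1. AT3G11930, for example, had levels of 4.24, 3.04 and 2.79 in wild type and 5.08, 3.69 and 3.51 in the mutant. Closest to CML41 were AT3G55470 (0.14), SWEET16 (0.14), which encodes a vacuolar sugar transporter, and AT2G25200 (0.15). The measure grows with a gene's own spread, and the median distance to all 7306 probe sets was 1.18 from AT1G57630, against 0.52 from WRKY53, 0.72 from WRKY6 and 0.67 from CML41. Nearest to AT1G57630 were AT5G05600 (0.30), an oxygenase gene of jasmonate catabolism, AT2G18690 (0.30) and SBT3.3 (0.36), a subtilase gene of immune priming. SBT3.3 was also low in the wild-type array of set 2, with levels of -0.45, -2.12 and -1.32 in wild type and 0.45, -0.20 and -0.26 in the mutant. Among the 4 genes themselves CML41 and WRKY53 were the closest pair, at 0.35, and WRKY53 and AT1G57630 the farthest, at 0.86. Counted from AT1G57630, CML41 was 33rd of the 7306 probe sets, WRKY6 115th and WRKY53 395th. From CML41, WRKY53 was 157th, WRKY6 589th and AT1G57630 2161st. From WRKY6, CML41 was 595th, WRKY53 3233rd and AT1G57630 3863rd. From WRKY53, CML41 was 531st, but WRKY6 was 6476th and AT1G57630 7108th, so the 4 genes were not all alike over the arrays.

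Few relatives of these genes carried a name on the array. For scale, 17.4% of all tested probe sets had an unadjusted p under 0.05, 12.6% being higher in the mutant with such a p, and 58.3% had a difference above 0. Of 70 other WRKY genes 5 had a probe set named for them and 3 were tested under their name, and none passed in limma at an adjusted p of 0.05 (or at an unadjusted p of 0.05). WRKY47 differed by 0.36 (SE 0.17, adjusted p = 0.315), WRKY20 by -0.0069 (SE 0.15, adjusted p = 0.984) and ZAP1, also known as WRKY1, by -0.082 (SE 0.15, adjusted p = 0.796). WRKY22 and WRKY42 were too dim to be tested. Of 20 other calmodulin and CML genes 7 had a probe set named for them and 3 were tested under their name, and 0 passed, while all 3 had an unadjusted p under 0.05 (17.4% of all tested probe sets did). CML42 and CML30 differed by 0.61 (SE 0.20, adjusted p = 0.198) and 0.43 (SE 0.19, adjusted p = 0.28), and CML38 lay on the other side at -0.47 (SE 0.17, adjusted p = 0.219). The CML38 differences were below 0 in all 3 sets, at -0.27, -0.71 and -0.42. Other TIR genes were sought only by gene symbols and synonyms that name the domain, so TIR genes without such a name were missed and may be among the tested probe sets. This search found 2 genes, and neither had a probe set with a name. CSA1, an immune receptor gene with a TIR domain that the immune list below holds, differed by 0.019 (SE 0.19, adjusted p = 0.967). No probe set was named for any of 10 partners and targets of WRKY53 and WRKY6 or of 11 phosphate starvation genes.

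Among 20 genes of immune receptors and signalling 15 were tested, 11 with a difference above 0 and 4 below, and the median was 0.23 against 0.058 for all tested probe sets. None passed in limma, and 6 of the 15 had an unadjusted p under 0.05, all of them higher, against 12.6% of all tested probe sets that were higher with such a p. SBT3.3, among those 6, had a difference of 1.29 (SE 0.24, adjusted p = 0.0628) with 0.90, 1.92 and 1.05 in the 3 sets. Like AT1G57630 it passed the brightness filter only through its mutant arrays. Its wild-type mean, -1.29, lay below the mean level needed to pass, so its difference rests on dim wild-type values. GRX480, a glutaredoxin gene of salicylate responses, had one of 0.75 (SE 0.25, adjusted p = 0.201), carried by sets 1 and 3 (0.93, -0.0075 and 1.31). PR-1-LIKE had a difference of -0.19 (SE 0.35) with opposite signs in the sets, and PTI1-4, a kinase gene, one of -0.13 (SE 0.17). SAG101, a partner of EDS1 in signalling from TIR receptors, and BIK1, a kinase of flagellin signalling, were the only tested genes of their shorter lists. They differed by 0.43 (SE 0.17, adjusted p = 0.253) and 0.17 (SE 0.16, adjusted p = 0.597). Both are also counted among the 15 tested immune genes, and SAG101 again in the senescence and autophagy list, so these lists overlap.

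Of 17 senescence and autophagy genes 15 were tested, 14 with a difference above 0 (58.3% of all tested probe sets), and the median was 0.43 against 0.058. None passed in limma, and 10 of the 15 had an unadjusted p under 0.05, 9 of them higher, against 17.4% and 12.6% of all tested probe sets. The largest differences were those of ATG8H (0.87, SE 0.25, adjusted p = 0.165) and ATG8E (0.64, SE 0.18, adjusted p = 0.171), which encode ATG8 proteins of the autophagosome membrane. All 9 tested ATG8 genes were above 0 in all 3 sets, as were 26.3% of all tested probe sets. Their median was 0.44, and this subset was picked out after its values were seen. These 9 genes of 1 family are most of the 15 tested, so the count and median of the list rest largely on them. ATG8B was the lowest of them, at 0.050 (SE 0.14). GAMMA-VPE, a vacuolar protease gene, had a difference of -0.35 (SE 0.14, adjusted p = 0.258). The other tested genes outside ATG8 were above 0, up to 0.49 (SE 0.15) for YLS5. SAG29, the single named gene of the other senescence list, was too dim to be tested, at -0.59 ± 1.44 in the wild-type and -1.77 ± 0.71 in the mutant arrays (SD, n = 3 each).

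Genes of IQD proteins, which bind calmodulin, lay mostly on the other side, with 8 of 9 tested below 0, a subset picked out after its values were seen. They were listed together with genes of calcium channels. Of 24 genes in this list 13 were tested, 11 with a difference below 0 and 2 above (58.3% of all tested probe sets were above 0), and the median was -0.16. None passed in limma, and 3 of 13 had an unadjusted p under 0.05, 1 of them higher, against 17.4% and 12.6% of all tested probe sets. IQD22 had a difference of -0.56 (SE 0.18, adjusted p = 0.193) and the glutamate receptor-like channel gene GLR3.6 one of -0.50 (SE 0.20, adjusted p = 0.247). GLR3.6 passed the brightness filter only through its wild-type arrays, its mutant mean of -0.90 being below the mean level needed to pass. GLR2.7 lay highest, at 0.55 (SE 0.17, adjusted p = 0.192), followed by IQD23 at 0.057 (SE 0.16). With GLR3.3 at -0.10 (SE 0.18), the glutamate receptor-like genes fell on both sides.

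**Figure D4:**
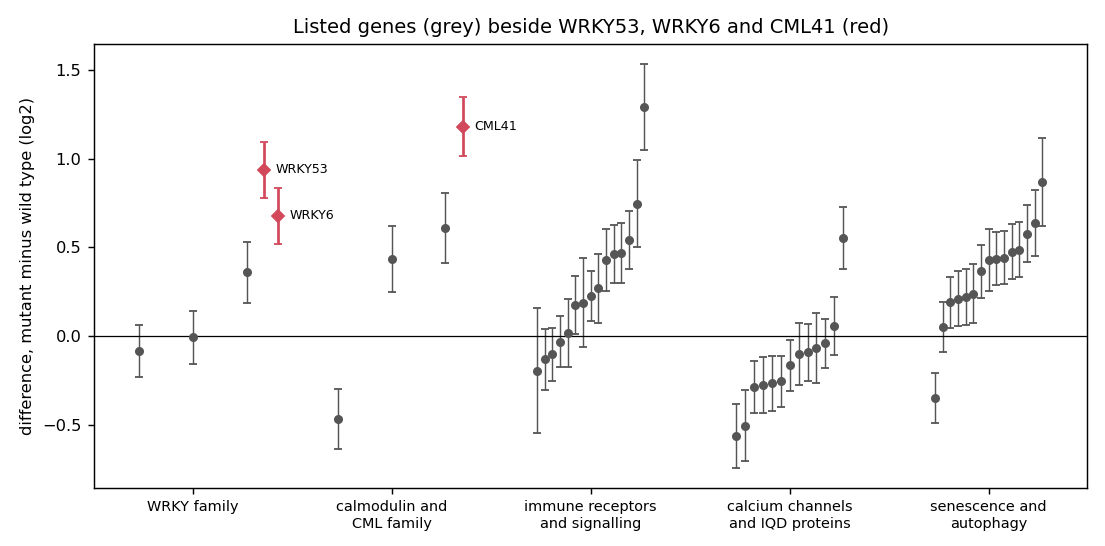
Points show the difference (double mutant minus wild type, log2) of each tested listed gene with its SE, by list, and red diamonds show WRKY53, WRKY6 and CML41 beside their families. No grey point passed an adjusted p of 0.05. The 3 tested WRKY relatives lie between -0.082 and 0.36, below both red WRKY diamonds. The red genes were chosen by this same difference, so their place above the relatives is no evidence about the family.

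The genes next to the 4 on the chromosomes were read in the order of the RefSeq annotation, taking the nearest tested gene on each side. WRKY53 lies directly between 3xHMG-box2 and AT4G23820, which differed by 0.19 (SE 0.17) and 0.15 (SE 0.15). AT1G62290, directly beside WRKY6, differed by -0.072 (SE 0.34), AT3G50780, directly beside CML41, by -0.28 (SE 0.15), and AT1G57620, directly beside AT1G57630, by 0.28 (SE 0.18). None of the 8 neighbours passed in limma, and none had an unadjusted p under 0.05.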

How the data were processed

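MAS5 made the probe set signals, per the submitters' processing notes, which record no version. The deposited values are log2 signals, each array having been divided by its median, as the values show. A single value standing for a signal of 0 was replaced by its array's smallest step. Dim MAS5 signals are noisy on a log scale. Of 22810 probe sets 64 controls were left out, and the brightest 60% of the rest (13648) entered a limma fit (limma 3.58.1, R 4.3.3; lmFit, eBayes with trend, set as a block, Benjamini-Hochberg over all tested). The pairing comes from the labels, and the arrays of sets 1 to 3 deviated together with correlations of 0.67, 0.28 and 0.62. Gene names came from the platform annotation (13513 probe sets with 1 gene, 503 with several, 8730 unnamed), updated through RefSeq (TAIR10.1) for 13436. Lists held 1 probe set per gene, the brightest, and left out the 4 genes. On simulated data (5 draws, 13648 probe sets, 200 changed by 2-fold or 4-fold) the fit recovered 96.2% of 2-fold changes, with 17.4 false calls per draw. The simulated noise was normal and independent, with SDs taken from the fit, so this share does not tell how many such changes were recovered in the real data. There AT2G18690, for example, was not called at a difference of 1.68 (SE 0.34, adjusted p = 0.076 in limma). The genes and lists were chosen with earlier results of these data known, and the lists of immune, calcium and IQD, and senescence and autophagy genes after seeing which names the array carries. Named are the 4 genes, the 3 nearest to each, called listed genes and the 2 highest and 2 lowest of each list, and other names were chosen after their values were seen. Alternatives covered the block, filter, normalization, offset, trend, control covariate and each set left out.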

Additional observations from a re-analysis of the deposited data

How the results depend on the processing

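All 4 genes kept a difference above 0 under the 10 alternatives that could be run for each, while the brightest 40% of probe sets held none of them. The difference of WRKY53 ranged from 0.77 to 1.02, that of WRKY6 from 0.55 to 0.73, that of CML41 from 1.0001 to 1.27 and that of AT1G57630 from 1.49 to 2.31. It moved by more than the SD of the set differences for WRKY53 with an offset of 50 signal units before the log (0.77), and for WRKY6 with that offset (0.55) and with the median division undone (0.55), where the median of all tested probe sets shifted by -0.12. Without set 1, 2 or 3 the differences ranged from 0.87 to 1.02 (WRKY53), 0.64 to 0.73 (WRKY6), 1.01 to 1.27 (CML41) and 1.51 to 2.31 (AT1G57630). The calls that entered the choice of the genes varied: AT1G57630 and CML41 were called under 8 of the 10 alternatives and WRKY53 under 6. The calls of all 3 were lost without the replicate block and without the filter, and that of WRKY53 also with the median division undone and without set 2. WRKY6 was called under none. Of all tested probe sets 72 were called, against 1 without the replicate block, 14 without a filter, 43 in the brightest 40%, 194 with the control covariate and 107 to 1107 without 1 set (1107 without set 1, 107 without set 2, 207 without set 3). With the median division undone 41 were higher and 33 lower in place of 53 and 19. Of the 48 listed genes tested 0 were called, against 1 with the control covariate (ATG8E) and 1 to 4 without 1 set: APG8A, CML42, ATG8H and SBT3.3 without set 1, GRX480 without set 2 and SBT3.3 without set 3. The cause of these changes was not tested.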
